A study of Mus musculus with 14 samples.

Results

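The UDP-glucuronosyltransferase (Ugt) genes described here are a fixed list of 10 genes, namely Ugt1a1, Ugt2a3, Ugt2b1, Ugt2b5, Ugt2b34, Ugt2b35, Ugt2b36, Ugt2b37, Ugt2b38 and Ugt3a1. They were 10 of 24970 genes with a count above 0 in the liver RNA sequencing data, and 9 of them were among the 13127 genes that passed a filter on low counts and were tested. Ugt2b38 fell under that filter. Mice on a high-fat diet carried a silk scaffold in both groups. In the transplant group (n = 6 livers) the scaffold held differentiated pre-adipocytes from brown adipose tissue, and in the empty scaffold group (n = 8 livers) it held no cells. The series asks which metabolic changes follow such a transplant, the liver transcriptome among them. The labels used here give no strain, sex, age or time after surgery. They do not state that each library comes from a different animal, and p-values therefore cover the spread among these libraries, which may be technical.

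UDP-glucuronosyltransferases sit in the membrane of the endoplasmic reticulum and transfer glucuronic acid from UDP-glucuronic acid to small lipophilic molecules. The resulting glucuronides are soluble in water and leave the liver through bile or blood. Bilirubin, steroid hormones, bile acids and many drugs are cleared in this way, and hepatocytes are the main site. The Ugt1a genes are alternative first exons joined to a common set of later exons, whereas the Ugt2 genes are separate copies in a cluster.

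In the GENCODE M21 annotation of GRCm38, 8 of the 10 genes lie in a cluster on chromosome 5, in the order Ugt2b34, Ugt2b1, Ugt2b35, Ugt2b36, Ugt2b5, Ugt2b37, Ugt2a3 and Ugt2b38. Ugt1a1 lies on chromosome 1 and Ugt3a1 on chromosome 15. How far a short read can tell such copies apart was measured as the share of 31-base words of the main transcript that also occur in a transcript of another gene. That share was 81.3% for Ugt1a1, 55.8% for Ugt2b5, 52.9% for Ugt2b38, 34.4% for Ugt2b37 and 20.1% for Ugt3a1. It was 9.69% for Ugt2b36, 7.04% for Ugt2a3, 3.88% for Ugt2b35, 2.81% for Ugt2b34 and 0.83% for Ugt2b1. Words were matched on either strand, so the share of Ugt1a1 includes words of Gm20528, a transcript annotated on the opposite strand. No other Ugt1a gene held more than 58.5% of the words of Ugt1a1. Ugt2b5 shared 44.9% of its words with Ugt2b38 and 26.4% with Ugt2b37. Levels of Ugt2b5, Ugt2b37, Ugt2b38 and the single Ugt1a genes therefore depend on how the authors' software divided reads that match several genes. They are uncertain, while Ugt2b1 has almost no shared sequence. Ugt2b37 and Ugt2b38 were given at most 19.0 and 16.8 estimated counts in a library, against 10183 or more for Ugt2b5. The same reads therefore weigh far more in the levels of Ugt2b37 and Ugt2b38 than in that of Ugt2b5.

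**Figure D1:**
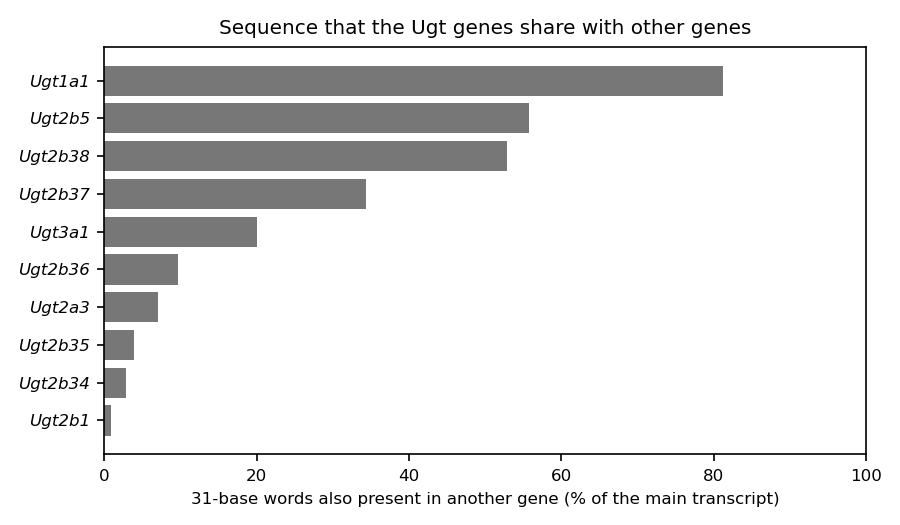
Share of 31-base words of each gene's main transcript that occur in a transcript of another gene (horizontal axis, % of words), 1 bar per gene. Ugt1a1 stands highest at 81.3%, and Ugt2b1 lowest at 0.83%. Words were matched on either strand, and the bar of Ugt1a1 includes words of the opposite-strand transcript Gm20528.

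The coding sequences of the closest copies were compared base by base. Ugt2b5 and Ugt2b38 were identical at 97.05% of aligned coding bases, Ugt2b5 and Ugt2b37 at 94.66%, and Ugt2b5 and Ugt2b36 at 88.45%. A window of 60 coding bases, chosen because its number of variable positions is close to the mean of all such windows, is shown from base 55 to base 114 of each coding sequence (counted from the start codon, GENCODE M21, chromosome 5), with the positions that vary among the 4 genes in capitals.
Ugt2b36: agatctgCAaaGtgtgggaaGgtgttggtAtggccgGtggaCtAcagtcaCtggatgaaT
Ugt2b5: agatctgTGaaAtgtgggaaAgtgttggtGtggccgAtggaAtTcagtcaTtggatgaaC
Ugt2b37: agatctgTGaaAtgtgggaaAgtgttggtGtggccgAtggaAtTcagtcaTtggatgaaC
Ugt2b38: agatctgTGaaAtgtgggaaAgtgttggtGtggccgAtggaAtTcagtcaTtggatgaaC
In this window Ugt2b36 differs from the other genes at 10 positions, and the other genes are identical, so a read lying inside it matches Ugt2b5, Ugt2b37 and Ugt2b38 equally. A second window, chosen in the same way among Ugt2b5, Ugt2b37 and Ugt2b38 and running from base 214 to base 273, has 4 variable positions.
Ugt2b5: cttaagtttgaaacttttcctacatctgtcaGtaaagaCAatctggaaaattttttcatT
Ugt2b37: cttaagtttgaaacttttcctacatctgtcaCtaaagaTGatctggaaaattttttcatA
Ugt2b38: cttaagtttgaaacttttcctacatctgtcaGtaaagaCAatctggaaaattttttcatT
Here Ugt2b37 stands apart at 4 positions, and Ugt2b5 and Ugt2b38 are again identical.

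Ugt1a1, the enzyme that conjugates bilirubin, shares its later exons with the other genes of its locus. The last 30 bases of its first exon (lower case) and the first 30 bases of the common second exon (capitals) are shown beside those of Ugt1a5 and Ugt1a9 to mark where reads stop being specific.
Ugt1a1: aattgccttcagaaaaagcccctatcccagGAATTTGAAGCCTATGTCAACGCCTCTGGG
Ugt1a5: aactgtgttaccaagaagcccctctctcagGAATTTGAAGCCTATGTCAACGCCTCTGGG
Ugt1a9: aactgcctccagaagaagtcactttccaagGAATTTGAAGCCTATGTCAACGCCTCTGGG
Of the 2224 bases of the Ugt1a1 transcript, 913 (41.1%) lie in the first exon. A further transcript, Gm20528, annotated on the opposite strand, held 39.4% of the words of Ugt1a1 when either strand was allowed. The library kit marks strand, but the strand setting of the counting is not given in the sources used here, so reads of this pair may not have been told apart.

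Levels of different genes were compared in TPM, the authors' values per length. Averaged over all 14 libraries the order was Ugt2b36, Ugt2b5, Ugt1a1, Ugt2b34, Ugt2a3, Ugt2b1, Ugt3a1, Ugt2b35, Ugt2b37 and Ugt2b38. Ugt2b36 averaged 539.6 ± 85.6 TPM (SD, n = 6) in transplant livers and 559 ± 77.9 TPM (SD, n = 8) in empty scaffold livers. Ugt2b5 averaged 462 ± 74.7 TPM in transplant livers and 513 ± 88.7 TPM in empty scaffold livers, and Ugt1a1 averaged 324 ± 61.7 TPM in transplant livers and 404 ± 71.9 TPM in empty scaffold livers. The range of Ugt2b5 across libraries overlapped those of Ugt2b36 and of Ugt1a1, but within every library, 6 of 6 and 8 of 8, Ugt2b36 was above Ugt2b5 and Ugt2b5 above Ugt1a1. Ugt2a3 was likewise above Ugt2b1 in 6 of 6 transplant and 8 of 8 empty scaffold livers. Ugt2b34 and Ugt2a3 changed places between libraries, Ugt2b34 being higher in 4 of 6 transplant and 8 of 8 empty scaffold livers. Ugt2b36, Ugt2b5 and Ugt1a1 made up 29.5%, 25.2% and 17.6% of the summed TPM of the 10 genes in transplant livers, and 27.7%, 25.2% and 19.9% in empty scaffold livers. Ugt2b37 and Ugt2b38 stayed under 1 TPM in every library.

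TPM values are shares of a total that is the same in every library. The major urinary protein (Mup) transcripts summed to 83713 to 235990 TPM in transplant livers and 40024 to 117668 TPM in empty scaffold livers. Over the 13127 tested genes the median log2 ratio of mean TPM, transplant over empty scaffold, was -0.47, and its cause was not tested. Against that shift the log2 ratio of mean TPM was 0.59 higher for Ugt2b1, 0.49 for Ugt2a3 and 0.42 for Ugt2b36, although the unshifted ratio was 0.12 for Ugt2b1, 0.02 for Ugt2a3 and -0.05 for Ugt2b36. All differences between the groups below are on counts scaled by TMM factors, which assume that most genes do not change, and levels are given as CPM, a gene's count as a share of its scaled library.

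**Figure D2:**
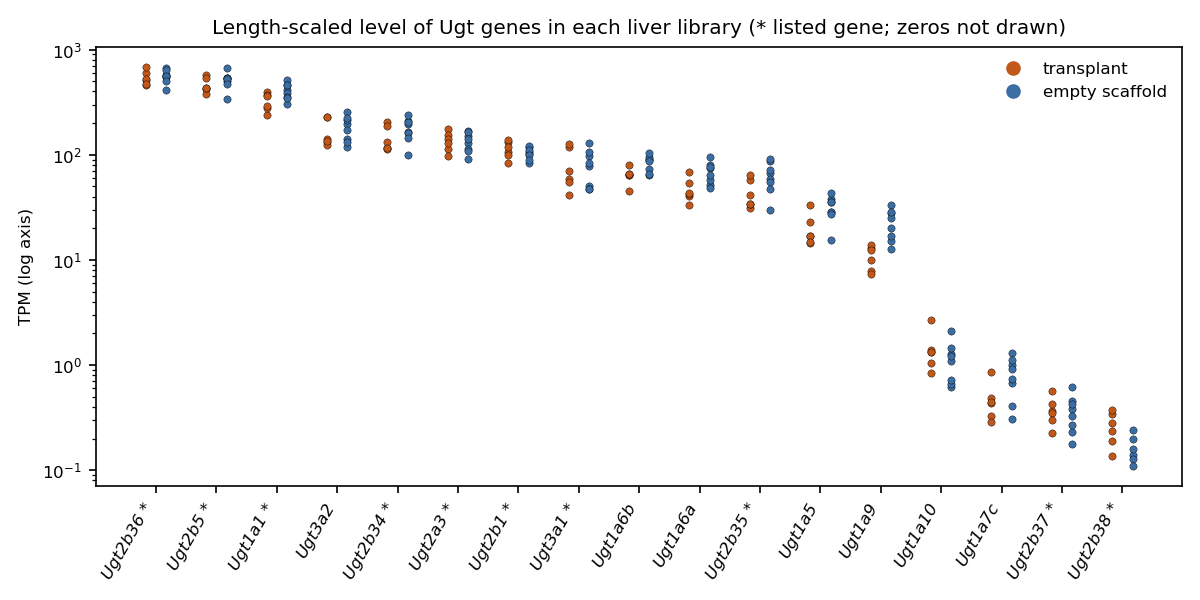
Length-scaled level (vertical axis, TPM, log scale) of the 10 listed genes (marked with an asterisk) and the 7 other tested Ugt genes in each library, transplant left of empty scaffold. Ugt2b36, Ugt2b5 and Ugt1a1 stand highest, and Ugt2b37 and Ugt2b38 lie under 1 TPM, where libraries listed at 0 are not drawn. TPM values carry the -0.47 shift given in the text.

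Relative to other genes, Ugt2b1, Ugt2a3 and Ugt2b36 rose in transplant livers, by 0.55 ± 0.11, 0.48 ± 0.11 and 0.40 ± 0.11 on the log2 scale (SE), while Ugt2b36 stood at -0.05 in unshifted TPM. With length and GC trends removed from each library, as described further on, Ugt2b36 stood at 0.20 and Ugt2a3 at 0.39 and neither was called, whereas Ugt2b1 was. None of the 9 tested genes fell. Ugt1a1, Ugt2b5, Ugt2b34, Ugt2b35, Ugt2b37 and Ugt3a1 did not pass the test, which was edgeR's quasi-likelihood test across all genes at an adjusted p under 0.05. Of all tested genes 3.31% were called higher, 4.23% lower and 7.54% in either direction, beside 3 of 9 here. Log2 fold changes were positive for 8 of the 9 genes with a median of 0.39. Over all tested genes they were positive for 6180 of 13127, with a median of -0.02. With length and GC trends removed the 9 genes ran from -0.04 for Ugt2b35 to 0.49 for Ugt2b1, against a median of 0.05 over all tested genes. The list was chosen with earlier results of these data known. In bulk tissue more cells of a type and more RNA per cell cannot be told apart.

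Ugt2b1 is a rodent member of the 2B subfamily, which conjugates steroids and many drugs. It had 228 CPM at the lowest, 268 at the median and 333 at the highest in transplant livers, and 145, 185 and 224 CPM in empty scaffold livers. Every transplant library thus lay above every empty scaffold library, as in 0.571% of all tested genes, and Ugt2b1 was the only listed gene among those tested with such a gap. The means were 274 ± 36.0 CPM (SD, n = 6) in transplant livers and 188 ± 25.8 CPM (SD, n = 8) in empty scaffold livers (adjusted p = 0.0156, edgeR). It was called in 14 of 14 fits that each left out 1 library, with log2 fold changes between 0.48 and 0.59.

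Ugt2a3, whose human counterpart conjugates bile acids, had 225, 269 and 315 CPM in transplant livers at the lowest, median and highest, against 149, 198 and 233 CPM in empty scaffold livers. Of the 6 transplant libraries 5 lay above all empty scaffold libraries, the exception being transplant replicate 4. The means were 274 ± 34.2 CPM in transplant livers and 197 ± 25.0 CPM in empty scaffold livers (adjusted p = 0.0216, edgeR). The call was lost without transplant replicate 1 (adjusted p = 0.0518, edgeR) and without transplant replicate 5 (adjusted p = 0.0594, edgeR). Log2 fold changes over the 14 such fits stayed between 0.43 and 0.52.

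Ugt2b36, the most abundant of the 10 per length, had 686, 817 and 878 CPM in transplant livers at the lowest, median and highest, and 483, 589.8 and 757 CPM in empty scaffold livers. The groups overlapped, since transplant replicate 2 was the lowest of its group and lay below 3 empty scaffold libraries. Means were 806 ± 66.4 CPM in transplant livers and 612 ± 98.7 CPM in empty scaffold livers (adjusted p = 0.0438, edgeR). The call held in 4 of 14 fits that left out 1 library, and was lost without transplant replicate 1, 3, 4, 5 or 6 and without empty scaffold replicate 1, 2, 3, 4 or 8, where the adjusted p of edgeR reached 0.110 at the highest and the log2 fold change stayed between 0.35 and 0.45. Its main transcript carried 91.9% to 95.4% of the gene's counts in transplant livers and 92.9% to 95.2% in empty scaffold livers, and that transcript alone gave 0.40 ± 0.12 (adjusted p = 0.0459, edgeR). Removing length and GC trends took its log2 fold change to 0.20 ± 0.10 and ended the call (adjusted p = 0.222, edgeR).

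**Figure D3:**
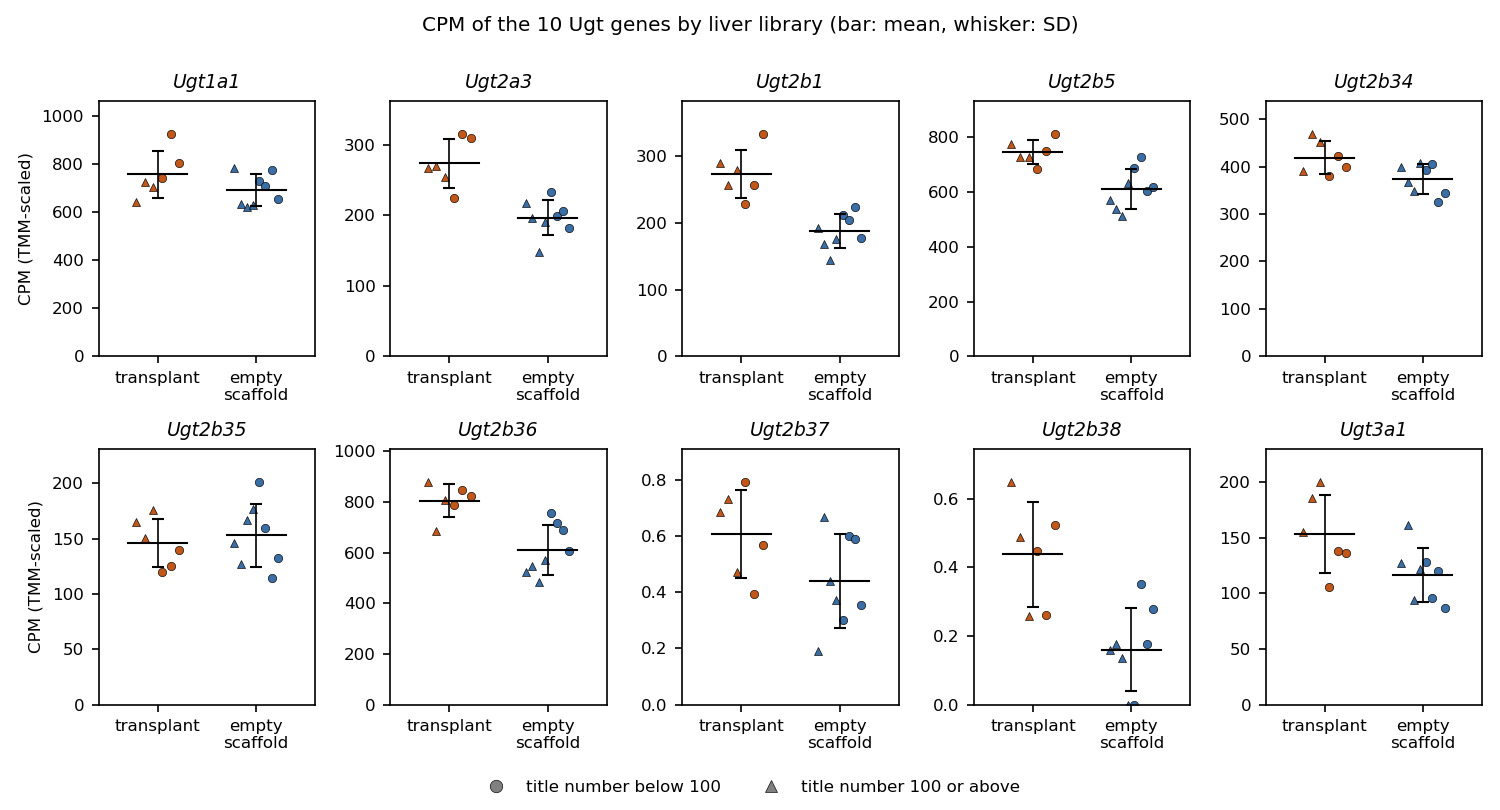
CPM (vertical axis, TMM-scaled, starting at 0) of each of the 10 genes in the 6 transplant livers (left) and the 8 empty scaffold livers (right), with mean (bar) and SD (whisker). Circles are libraries with a title number below 100 and triangles those of 100 or above. Ugt2b1 shows no overlap between the groups, with 228 CPM as the lowest transplant and 224 CPM as the highest empty scaffold value.

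Among the remaining abundant genes, Ugt2b5 had 684, 739.5 and 811 CPM at the lowest, median and highest in transplant livers and 511, 611 and 729 CPM in empty scaffold livers. Its log2 fold change was 0.29 ± 0.10 (adjusted p = 0.0685, edgeR), and 3 of 6 transplant libraries lay above all empty scaffold libraries. Without empty scaffold replicate 5 or 6 it was called (adjusted p = 0.0487 and 0.0424, edgeR), as it was with DESeq2 (adjusted p = 0.0128). Once trends on length and GC content were taken out, its log2 fold change was 0.12 ± 0.09 (adjusted p = 0.440, edgeR). Of its words 55.8% are shared, with 44.9% found in Ugt2b38 and 26.4% in Ugt2b37. Those genes had at most 16.8 and 19.0 estimated counts in a library, against 10183 to 20392 for Ugt2b5. The part of read division in the value of Ugt2b5 was not tested. Ugt3a1, whose human counterpart transfers N-acetylglucosamine instead of glucuronic acid, had 105, 146 and 199.8 CPM in transplant livers and 86.6, 121 and 161 CPM in empty scaffold livers, with a log2 fold change of 0.39 ± 0.15 (adjusted p = 0.103, edgeR). Its groups overlapped, with 2 of 6 transplant libraries above all empty scaffold libraries.

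Ugt1a1 averaged 758 ± 97.3 CPM in transplant livers and 692 ± 67.1 CPM in empty scaffold livers, a log2 fold change of 0.13 ± 0.10 (adjusted p = 0.391, edgeR). Ugt2b34 averaged 419 ± 35.2 CPM in transplant livers and 374 ± 31.8 CPM in empty scaffold livers (0.16 ± 0.09, adjusted p = 0.217, edgeR). Ugt2b35 was the gene with a negative value, at 146 ± 21.9 CPM in transplant livers and 153 ± 28.6 CPM in empty scaffold livers (-0.07 ± 0.13, adjusted p = 0.746, edgeR). The groups overlapped for each of these 3 genes. A p above the threshold does not show that their levels were equal.

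Ugt2b37 and Ugt2b38 were scarce. Ugt2b37 had estimated counts of 9.01 to 18.0 per library in transplant livers and 6.01 to 19.0 in empty scaffold livers, and its log2 fold change was 0.48 ± 0.28 (adjusted p = 0.247, edgeR). Ugt2b38 had estimated counts of 5.53 to 16.8 in transplant livers and 0 to 6.72 in empty scaffold livers, where 2 libraries were at 0. Of its 6 transplant libraries 4 lay above all empty scaffold libraries. It was too low for the main test, DESeq2 gave it an adjusted p of 0.0267, and edgeR without the low-count filter gave 0.0826. Ugt2b5, with which Ugt2b38 shares 44.1% of its words, had on average 17432 estimated counts in transplant livers and 15628 in empty scaffold livers. The part of divided Ugt2b5 reads in the counts of Ugt2b38 was not tested.

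Summing the copies lessens the dependence on how shared reads were divided, and these sums carry no p. The Ugt1a sum does not hold Gm20528, so division between that transcript and the locus remains in it. The 10 genes of the Ugt2 cluster, Ugt2a1 and Ugt2a2 included, together had 2666 ± 145 CPM in transplant livers and 2135 ± 226 CPM in empty scaffold livers, a log2 fold change of 0.32 ± 0.10. The groups overlapped, because transplant replicate 4 had 2428 CPM and empty scaffold replicate 5 had 2483 CPM. The 9 genes of the Ugt1a locus together had 1104 ± 126 CPM in transplant livers and 1060.0 ± 87.3 CPM in empty scaffold livers (0.06 ± 0.10). Ugt3a1 and Ugt3a2 together had 532 ± 76.0 CPM in transplant livers and 425 ± 62.5 CPM in empty scaffold livers (0.32 ± 0.12). The cluster sum lay further from 0 than the Ugt1a sum, and the difference between the sums was not tested. These sums were fitted on counts as deposited only. With length and GC trends removed, Ugt2b36 and Ugt2b5, the most abundant genes of the cluster, stood at 0.20 and 0.12. Ugt2b1 and Ugt2a3 then stood at 0.49 and 0.39. In summed TPM, which carries the -0.47 shift, the cluster averaged 1440 ± 252 in transplant livers and 1551 ± 257 in empty scaffold livers.

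The 12 Ugt genes outside the list had 7 tested members, and edgeR called 0 of them (3 at an unadjusted p under 0.05), whereas DESeq2 called Ugt3a2 higher and Ugt1a9 lower. Ugt1a9 stood at 24.3 ± 4.56 CPM in transplant livers and 37.6 ± 11.5 CPM in empty scaffold livers, with a log2 fold change of -0.63 ± 0.19 (adjusted p = 0.0515, edgeR). All 6 transplant libraries lay below the median of the empty scaffold livers for this gene, while the groups overlapped. Ugt3a2 stood at 379 ± 42.6 CPM in transplant livers and 308 ± 39.1 CPM in empty scaffold livers (0.30 ± 0.10, adjusted p = 0.0743, edgeR). Ugt1a10, at 3.60 ± 2.22 CPM in transplant livers and 1.86 ± 1.10 CPM in empty scaffold livers, had 0.96 ± 0.37 (adjusted p = 0.0995, edgeR). For Ugt1a5, Ugt1a6a, Ugt1a6b and Ugt1a7c log2 fold changes lay between -0.23 and 0.06. With the title-number range as a covariate, described further on, Ugt3a2 (adjusted p = 0.0367, edgeR) and Ugt1a9 (adjusted p = 0.0296, edgeR) were called as well. The Ugt1a genes share their later exons, so their single values are uncertain.

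The title numbers of the samples fall below 100 (3 transplant and 4 empty scaffold livers) or at 100 and above (also 3 transplant and 4 empty scaffold livers), and what the numbers stand for is not labelled. Within the range below 100 the 9 genes gave 0 calls (2 at an unadjusted p under 0.05), where 0.0154% of all tested genes were called higher by edgeR. Within the range of 100 or above 5 genes were called higher, namely Ugt2b1, Ugt2a3, Ugt2b36, Ugt2b5 and Ugt3a1, where 14.5% of all tested genes were called higher. Ugt2b1 had log2 fold changes of 0.42 ± 0.15 below 100 and 0.69 ± 0.12 at 100 or above, and Ugt2a3 had 0.47 ± 0.14 and 0.49 ± 0.13. For Ugt2b36 the values were 0.25 ± 0.13 below 100 and 0.57 ± 0.13 at 100 or above. Below 100, Ugt2b36 had 789 to 848 CPM in transplant livers and 607 to 757 CPM in empty scaffold livers, and at 100 or above it had 686 to 878 CPM in transplant livers and 483 to 572 CPM in empty scaffold livers, so the groups did not overlap within either range. Ugt2b1 did not overlap in either range, and Ugt2a3 and Ugt2b5 did not overlap at 100 or above. All tested genes without overlap and higher in transplant livers were 4.06% below 100, beside 2 of the 9 genes, and 21.1% at 100 or above, beside 4 of the 9. Tested directly, the difference between the ranges had adjusted p values of 0.335 or more in edgeR for all 9 genes, and 0 of 13127 genes were called (2275 at an unadjusted p under 0.05). With the range as a covariate 5 genes were called, where 10.6% of all tested genes were called higher, again with Ugt2b5 (adjusted p = 0.0310, edgeR) and Ugt3a1 (adjusted p = 0.0460, edgeR) beside the 3. In either range transplant and empty scaffold livers occupy separate stretches of numbers, so an effect that runs with the numbers there and an effect of the group cannot be told apart.

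Libraries also differed in how gene level moved with transcript length and GC content. The slope of log2 level per doubling of length ran from -0.27 to 0.02 with a median of -0.10 in transplant livers. In empty scaffold livers it ran from -0.09 to 0.23 with a median of 0.09. Per 10 points of GC content the slope ran from -0.15 to 0.06 with a median of -0.05 in transplant livers. In empty scaffold livers that slope ran from -0.07 to 0.17 with a median of 0.03. The groups overlapped in each slope. The 9 tested genes had GC contents of 39.3% to 47.2% with a median of 40.2%, low against the median of 50.1% over all tested genes. With trends on length and GC content removed from each library, Ugt2b1 remained called at 0.49 ± 0.13 (adjusted p = 0.0447, edgeR) where 2.93% of all tested genes were called higher. Ugt2a3 then stood at 0.39 ± 0.12 (adjusted p = 0.0626, edgeR), and Ugt2b36 at 0.20 was about as far from 0 as Ugt2b34 at 0.19. The call of Ugt2b36 was also lost without the low-count filter (0.39, adjusted p = 0.0719, edgeR) and with offsets for effective length (0.37, adjusted p = 0.0801, edgeR), where its log2 fold change stayed close to 0.40.

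**Figure D4:**
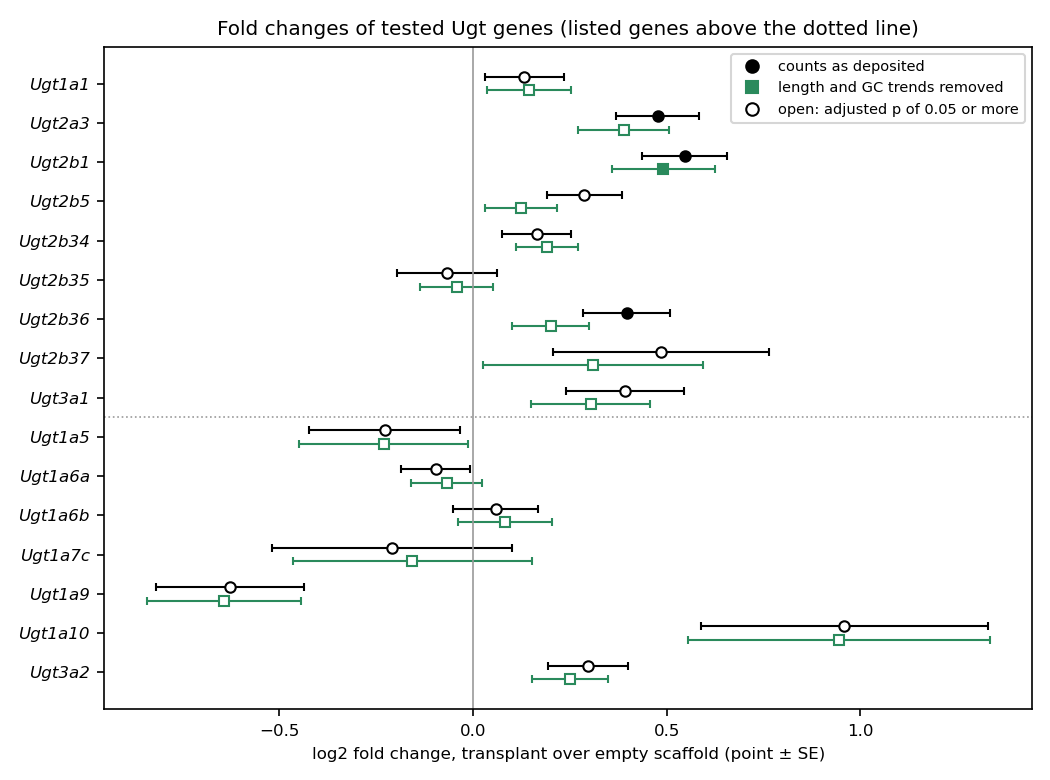
Log2 fold change (horizontal axis, transplant over empty scaffold, point ± SE) of the 9 tested listed genes, above the dotted line, and 7 other tested Ugt genes, on counts as deposited (circles) and with length and GC trends removed (squares), filled where the adjusted p is under 0.05. Ugt2b1 is filled in both, and Ugt2b36 stands at 0.40 on counts as deposited and 0.20 with trends removed. In unshifted TPM the ratio of Ugt2b36 is -0.05.

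**Figure D5:**
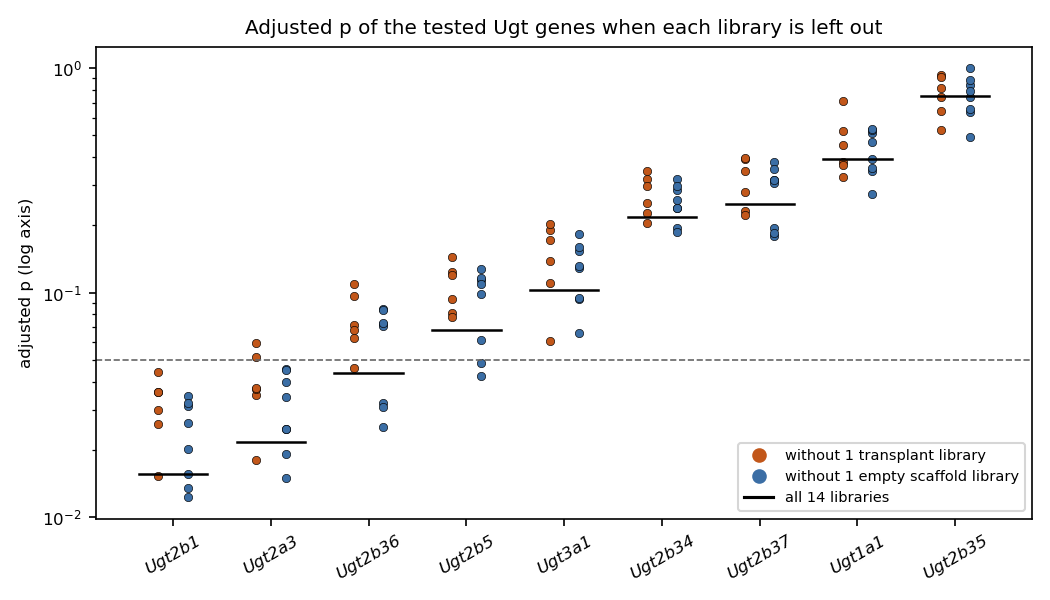
Adjusted p of edgeR (vertical axis, log scale) of the 9 tested genes when each library is left out in turn (points, coloured by the group of that library) and with all 14 libraries (black line), with the threshold of 0.05 dashed. All 14 points of Ugt2b1 lie under the threshold, 12 of Ugt2a3 and 4 of Ugt2b36.

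The promoters of 10 of 10 genes were found in the RefSeq table of GRCm38.p6, and the 250 bases before the start were searched on both strands. Promoters of the 3 called genes and of Ugt2b5 are shown because these genes lie in a common cluster and stood higher in transplant livers in TMM-scaled counts (Ugt2b5 without passing the test), with matches in capitals.
Ugt2b1, chr5:86926504-86926753, minus strand: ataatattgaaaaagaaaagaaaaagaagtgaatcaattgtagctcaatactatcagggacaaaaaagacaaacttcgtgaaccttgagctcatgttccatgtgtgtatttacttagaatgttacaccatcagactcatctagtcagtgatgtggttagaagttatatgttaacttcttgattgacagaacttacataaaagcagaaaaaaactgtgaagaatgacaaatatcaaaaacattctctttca
Ugt2a3, chr5:87337196-87337445, minus strand: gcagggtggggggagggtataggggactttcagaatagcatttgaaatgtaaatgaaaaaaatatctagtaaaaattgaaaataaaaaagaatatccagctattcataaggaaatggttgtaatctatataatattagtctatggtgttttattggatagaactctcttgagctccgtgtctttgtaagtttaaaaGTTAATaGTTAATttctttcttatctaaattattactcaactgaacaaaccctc
Ugt2b36, chr5:87092556-87092805, minus strand: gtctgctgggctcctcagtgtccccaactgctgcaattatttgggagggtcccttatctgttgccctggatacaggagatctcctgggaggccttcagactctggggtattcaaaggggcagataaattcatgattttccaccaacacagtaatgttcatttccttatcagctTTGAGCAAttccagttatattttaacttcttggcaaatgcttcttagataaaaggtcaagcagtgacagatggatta
Ugt2b5, chr5:87140341-87140590, minus strand: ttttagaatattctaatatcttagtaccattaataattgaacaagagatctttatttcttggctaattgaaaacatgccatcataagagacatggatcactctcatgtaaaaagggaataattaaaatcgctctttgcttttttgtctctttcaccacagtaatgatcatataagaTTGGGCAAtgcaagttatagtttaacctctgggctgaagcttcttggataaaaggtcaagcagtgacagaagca
The letters GTTAAT, bound by HNF1, a homeodomain factor of hepatocytes, occurred in Ugt2a3 at 54 and 47 bases before the start, and as its reverse complement in Ugt1a1 at 41 and Ugt3a1 at 123 bases. It occurs in 6.52% of the 27025 promoters of the table. The C/EBP letters TTGCNNAA occurred, reversed, in Ugt2b36 at 77 and Ugt2b5 at 74 bases before the start, and in 9.55% of all promoters. The letters TTCNNNGAA (STAT5, in 7.18% of promoters), CAAAGTCCA (HNF4, in 0.38%) and GCGTG (the core bound by the Ah receptor, in 28.2%) were in none of the 10 windows. The Ugt2b1 window held none of the letters searched. The promoters of Ugt2b37 and Ugt2b38 were identical at 94.9% of aligned bases, and those of Ugt2b5 and Ugt2b37 at 85.4% and of Ugt2b5 and Ugt2b38 at 86.7%. The promoters of Ugt2b5 and Ugt2b36 were identical at 65.5%, close to the 62.2% of Ugt2b35 and Ugt2b37.

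Other steps of glucuronidation were read from the same fit, where 3.31% of all tested genes were called higher and 4.23% lower. The lists are short, and no list was tested against these shares. Of 12 genes that supply UDP-glucuronic acid, all tested, 0 were higher and 1 was lower, namely Ugdh, the dehydrogenase that makes UDP-glucuronic acid from UDP-glucose. It fell to 112 ± 14.8 CPM in transplant livers, against 149 ± 21.1 CPM in empty scaffold livers (-0.42 ± 0.11, adjusted p = 0.0375, edgeR), and was called in 8 of 14 fits that left out 1 library. Of 8 genes of glucuronate use and release 7 were tested, 0 were higher and 1 was lower, Gusb, the lysosomal glucuronidase that splits glucuronides (-0.35 ± 0.09, adjusted p = 0.0298, edgeR; called in 9 of 14 such fits). Of 8 transporters that export glucuronides or take up organic anions, Slco1a1 was higher (2.40 ± 0.39, adjusted p = 0.0133, edgeR) and 0 were lower. The exporters Abcc2 and Abcc3 stood at -0.32 ± 0.15 and -0.22 ± 0.13 and did not pass. With length and GC trends removed Ugdh stood at -0.36 and Gusb at -0.24, each with an adjusted p of 0.0544 (edgeR).

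Heme breakdown yields bilirubin, the substrate of Ugt1a1. Beside the list of heme breakdown genes stand the same shares of all tested genes, 3.31% called higher and 4.23% lower. Of 7 genes of that list 0 were higher and 1 was lower, Hmox1, the inducible heme oxygenase, which fell to 12.4 ± 3.66 CPM in transplant livers, against 20.99 ± 5.48 CPM in empty scaffold livers (-0.76 ± 0.19, adjusted p = 0.0302, edgeR; called in 9 of 14 fits that left out 1 library). Of 20 regulators of Ugt genes 19 were tested, 1 was higher and 0 were lower, a share near the 3.31% of all tested genes called higher. That gene, Foxa3, a forkhead factor of hepatocytes, stood at 50.5 ± 9.35 CPM in transplant livers and 35.6 ± 8.38 CPM in empty scaffold livers (0.50 ± 0.15, adjusted p = 0.0496, edgeR). It was called in 4 of 14 such fits and stood at 0.57 (adjusted p = 0.0556, edgeR) with trends removed, where Nr1i2, the pregnane X receptor, was called instead (0.40, adjusted p = 0.0436, edgeR; 0.27 on counts as deposited). Of 5 target genes of these receptors, such as Cyp1a2 and Cyp3a11, edgeR called 0 (1 at an unadjusted p under 0.05), and DESeq2 called 0.

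Some markers of other liver cell types were lower in transplant livers. Of 10 Kupffer cell markers 4 were lower, of 8 stellate cell and fibroblast markers 3, and of 6 sinusoidal endothelial markers 2, where 4.23% of all tested genes were called lower, and 0 of these were higher. The 5 cholangiocyte markers had 0 calls by edgeR (0 at an unadjusted p under 0.05) or DESeq2. With length and GC trends removed 5 Kupffer markers were lower, and the stellate and endothelial markers lost their calls. Stab2, an endothelial scavenger receptor, then stood at -0.23 (adjusted p = 0.112, edgeR), against -0.51 on counts as deposited, and Col3a1, a fibrillar collagen, at -1.07 (adjusted p = 0.0625, edgeR), against -1.29. In summed TPM, which carries the -0.47 shift, Kupffer markers ran from 78.3 to 119.8 in transplant livers and from 129.7 to 290.4 in empty scaffold livers. Stellate markers ran from 76.9 to 108 in transplant livers and from 90.6 to 214 in empty scaffold livers, and endothelial markers from 34.1 to 44.4 in transplant livers and from 39.8 to 89.2 in empty scaffold livers. Cholangiocyte markers ran from 22.2 to 45.3 in transplant livers and from 39.9 to 71.7 in empty scaffold livers. No listed marker of these types was at 0. The 6 hepatocyte markers had 0 calls by edgeR (1 at an unadjusted p under 0.05) or DESeq2, with summed TPM of 44107 to 81631 in transplant livers and 60054 to 82656 in empty scaffold livers. Of 4 kidney markers Umod, Kap and Slc12a1 were at 0 in all libraries, and Slc34a1 stayed under 1 TPM. Of 4 intestine markers Vil1 and Cdh17 stayed under 1 TPM, and Fabp2 stood at 206 ± 49.4 CPM in transplant and 149 ± 50.7 CPM in empty scaffold livers. Of 5 adipocyte markers 4 stayed under 1 TPM, and Cidea stood at 12.0 ± 17.2 CPM in transplant and 31.3 ± 30.2 CPM in empty scaffold livers. The intestine and adipocyte lists had 0 calls by edgeR or DESeq2. The part of cell makeup in the Ugt values was not tested.

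Genes outside the family that followed the 3 called genes most closely were found by Pearson's r of log2 CPM over 14 libraries after group means were removed. For Ugt2a3 they were Sord (r = 0.92), Ivd (0.89) and Cyp4f15 (0.89), for Ugt2b1 Kcnn1 (0.87), Cers2 (0.85) and Surf1 (0.84), and for Ugt2b36 Hist2h2aa1 (0.95), Rchy1 (0.94) and Eef1e1 (0.92). These are the top of the 13127 tested genes, less the Ugt genes and those under a floor on mean CPM. All points share depth, length and GC trends of their libraries.

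Depth did not differ between the groups past the threshold. The total estimated count per library was 22898793 to 28910968 in transplant livers and 19482580 to 28723928 in empty scaffold livers (two-sided exact permutation p = 0.309 over 3003 regroupings). No library stood apart from its group in any of the 10 genes by Dixon's criterion.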

How the data were processed

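RNA was measured in 14 livers, 6 transplant and 8 empty scaffold, grouped by the condition in the labels. Per the labels' protocols, RNA was extracted with a column kit and made into stranded mRNA libraries. The submitters' processing notes name fastp 0.20, kallisto 0.46.1, DESeq2 1.38 and the build GRCm39, without role or order. What annotation, options and strand setting kallisto was run with is not given in the sources used here. The authors deposited, per the file headers, estimated counts, TPM values and effective lengths for 128803 transcripts per library. Estimated counts that were deposited are not normalized. The deposited TPM values keep no depth, so they served for levels only.

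Transcripts were matched by identifier to GENCODE M21 of GRCm38 (120608, 93.6%, holding 99.4% to 99.5% of counts per library), so no gene coordinates are given. RefSeq promoters carry their own build, GRCm38.p6. Counts were summed per gene, rounded, filtered with filterByExpr, scaled by TMM and tested with edgeR 4.0.16 (R 4.3.3), a two-sided quasi-likelihood F test with robust estimation and the group as its only term. P-values were adjusted by Benjamini-Hochberg over 13127 genes, with a threshold of 0.05. Fold changes are log2, transplant over empty scaffold. Their SE was derived from the test, as the absolute log2 fold change divided by the square root of the quasi-likelihood F statistic. Intervals of counting error are not given, and total counts stand in the report.

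Alternatives were RLE scaling, DESeq2 1.42.0, no filter, title-number range as covariate or alone, splines with 4 degrees of freedom on length and GC content, effective-length offsets, summed copies, the main transcript, and leaving out each library. Trends with the range were added after seeing the data. On simulated data of this design, with 13020 genes in the fit, 79% of 100 genes changed by 1 on the log2 scale and 25% of 100 changed by 0.5 were called. The simulated counts varied independently between genes, without the length and GC trends of the libraries or any effect of the number range. No further genes were changed in the simulation, whereas 990 genes were called in the real fit. The Benjamini-Hochberg cut-off depends on how many genes change. These percentages may therefore not hold for the real libraries. All 10 members are named, and the other Ugt genes that were tested. Of each pathway list called members are named, and others only with values. Members and lists were chosen with earlier results of these data known. Replicate numbers follow accession order and pair no samples.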

Additional observations from a re-analysis of the deposited data

How the results depend on the processing

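Of the 9 tested genes 3 were called by edgeR on counts as deposited. DESeq2, which tested all 10 genes, called 5, Ugt2b38 among them, where it called 1956 of 13834 genes. The edgeR count was 5 with the number range as a covariate, 5 with title numbers of 100 or above and 0 with title numbers below 100. It was 1 with length and GC trends removed, and 1 to 4 when each library was left out, the count of 1 coming without transplant replicate 1 or 5. It was 3 with RLE scaling, 2 without the low-count filter, 2 with effective-length offsets and 2 with trends removed and the range as a covariate. Over all genes 990 were called, against 1956 with DESeq2, 2580 with the range as a covariate, 3488 at 100 or above, 3 below 100, 640 with trends removed, 315 with effective-length offsets, and 138 to 1908 when each library was left out. Counts lower by more than 1.5 times came without transplant replicates 1, 3 and 5 and empty scaffold replicates 1, 2, 3, 4 and 8, and counts higher by more than 1.5 times without empty scaffold replicates 5 and 7. Higher genes were 43.9% of the calls, against 55.9% at 100 or above, 66.7% below 100, 60.2% with trends removed and 64.3% with trends removed and the range as a covariate. No called gene of the list changed direction under any of these settings. Ugt2b1 was lost with title numbers below 100 (adjusted p = 0.414, edgeR), and over all settings its adjusted p ran from 0.000201 to 0.414. No paired analysis was possible because replicate numbers follow accession order and pair no samples. The cause of these differences was not tested. Depth limits Ugt2b37 and Ugt2b38, whose estimated counts stayed under 20 per library.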
